A study of Mus musculus with 77 samples.

Results

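Sorcs2, Zfp185, Pik3ap1 and Dbpht2 are 4 of the 46078 genes in the count table of mouse pancreatic ductal organoids that expressed either wild-type (WT) Ngn3 or the phosphomutant 6S-A Ngn3, in which 6 serines are alanine. They were chosen from the direct difference between 6S-A and WT Ngn3 after 2 days of induction, so that difference is described here and not tested. The organoids, of C57BL/6 mice, were infected with vectors for GFP only, GFP-WT-Ngn3 or GFP-6SA-Ngn3, all of which carried GFP. GFP+ cells were sorted after 2 days (GFP only, WT and 6S-A) and after 8 days (WT and 6S-A), and at 8 days each protein also had a control of cells labelled as no-color for that protein. The labels do not say whether these came from the same cultures as the GFP+ cells. No GFP-only group was measured at 8 days. Sorting put 50 cells in each of 77 pools, 1 library a pool, and the 7 groups each had 3 biological replicates. Each replicate was 6 pools at 2 days and 1 to 3 pools at 8 days. The ages and number of the mice are not given in the labels. All organoids were at passage 2 except replicate 3 of every 8-day group, which was at passage 5, so within 8 days passage and replicate number cannot be told apart.

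Ngn3 is a basic helix-loop-helix transcription factor that starts the endocrine programme in pancreatic progenitors, and proteins of this family bind the E-box CANNTG. Whether phosphorylation of its serines alters what it does to gene expression is the question the 6S-A form addresses. Sorcs2 encodes a sorting receptor of the VPS10P-domain family that binds pro-neurotrophins together with the receptor encoded by Ngfr. Zfp185 encodes a LIM-domain protein of the actin cytoskeleton. Pik3ap1 encodes an adaptor, also called BCAP, that couples B-cell and Toll-like receptors to phosphoinositide 3-kinase. Dbpht2 is annotated as a long intergenic non-coding RNA in GENCODE and as protein coding in RefSeq.

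The genes lie on 4 chromosomes of GRCm38 (GENCODE M21). Sorcs2 (ENSMUSG00000029093) spans chr5:36017180-36398139 on the minus strand and Pik3ap1 (ENSMUSG00000025017) spans chr19:41272377-41385102, also on the minus strand. Zfp185 (ENSMUSG00000031351) spans chrX:72987339-73031543 and Dbpht2 (ENSMUSG00000029878) spans chr12:74296668-74302008, both on the plus strand. No exonic base of Sorcs2 or Zfp185 was shared with the genes that overlap them, which are Psapl1 and Mir7689 in Sorcs2 and Mir2137 in Zfp185.

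Promoter sequences, the 250 bases before the gene start in RefSeq on GRCm38.p6, were matched for 3 of the 4 genes, Zfp185, Pik3ap1 and Dbpht2. They are shown because the genes responded to a factor that binds E-boxes. Capitals mark each CANNTG, read 5′ to 3′ on the strand of the gene, and the motif is its own reverse complement in form. The windows are chrX:72987089-72987338 (plus strand), chr19:41385103-41385352 (minus strand) and chr12:74297224-74297473 (plus strand). The RefSeq start of Dbpht2 lies downstream of the GENCODE start, so its window lies inside the GENCODE gene.
Zfp185: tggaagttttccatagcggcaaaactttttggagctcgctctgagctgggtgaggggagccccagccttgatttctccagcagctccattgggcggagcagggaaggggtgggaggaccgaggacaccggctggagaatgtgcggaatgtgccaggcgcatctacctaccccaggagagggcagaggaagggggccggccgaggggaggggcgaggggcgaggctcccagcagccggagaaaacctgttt
Pik3ap1: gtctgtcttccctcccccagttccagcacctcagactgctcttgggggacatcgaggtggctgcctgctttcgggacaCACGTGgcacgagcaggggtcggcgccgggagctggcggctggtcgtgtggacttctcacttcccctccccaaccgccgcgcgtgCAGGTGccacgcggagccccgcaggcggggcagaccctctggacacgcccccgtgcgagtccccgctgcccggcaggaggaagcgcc
Dbpht2: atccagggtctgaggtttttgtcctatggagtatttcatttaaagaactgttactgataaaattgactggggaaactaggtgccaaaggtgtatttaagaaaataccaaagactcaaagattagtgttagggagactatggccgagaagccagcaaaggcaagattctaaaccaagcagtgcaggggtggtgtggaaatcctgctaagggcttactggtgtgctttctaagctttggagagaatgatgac
The promoter of Pik3ap1 held 2 matches and those of Zfp185 and Dbpht2 held 0. Of 32851 promoters of the same length, 66.2% held CANNTG. The form CAGATG, searched on both strands, was in 14.4% of promoters. The form CAGCTG was in 13.0%, and neither was in any of the 3 windows.

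Read totals on genes were between 1501002 and 5632412 per pool at 2 days and between 849278 and 9202142 at 8 days. The pool with 849278 reads, a WT pool of replicate 2 at 8 days, was under the limit of 1000000 and was left out of the replicate values. Pools of a replicate were summed, and levels are CPM (read counts per gene, set to a total of 1000000 per library), scaled by TMM factors for replicates and unscaled for single pools. Neurog3, the gene of Ngn3, had at most 2 reads in any GFP-only replicate, and its mean level was 133 ± 63.3 CPM (SD, n = 3) with WT and 139 ± 52.4 CPM with 6S-A at 2 days. At 8 days its mean level was lower, at 22.4 ± 20.8 CPM with WT and 12.6 ± 2.75 CPM with 6S-A. The WT replicates 1 to 3 were uneven there, at 6.85, 46.0 and 14.2 CPM. Its log2 difference between 6S-A and WT was 0.05 (SE 0.33) at 2 days and -0.83 (SE 0.83, edgeR adjusted p = 1, Benjamini-Hochberg) at 8 days. Transgene and endogenous reads of Neurog3 cannot be told apart, and 273 of its exonic bases are shared with Fam241b on the opposite strand. All 12 ductal markers were over 1 CPM in GFP-only cells, and their summed level was 18930 to 20700 CPM there, 11610 to 12180 CPM with WT and 9435 to 10260 CPM with 6S-A. Spp1 alone had means of 8815, 4574 and 3829 CPM in these groups. With the mean of both proteins against GFP only, 7 of the 12 were called lower, against 9.37% of all genes. Sox9 and Krt7 were among those not called. The summed level of 12 endocrine markers was at most 2.66 CPM in GFP-only cells, 218.1 to 1122 CPM with WT and 546.7 to 1186 CPM with 6S-A at 2 days, and that of 8 islet hormone genes was at most 0.952, 54.8 to 190 and 204 to 658 CPM. The ductal and hormone sums of WT and 6S-A did not overlap, the endocrine sums did, and their part in the results was not tested. The highest sum in any replicate was 20.7 CPM for acinar, 12.8 for tuft, 10.2 for endothelial, 2.60 for fibroblast and 0.197 for T and NK cell markers. A change in the share of cells of a type and a change in RNA per cell cannot be told apart in these pools.

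At 2 days Sorcs2, Zfp185 and Dbpht2 were higher with 6S-A than with WT Ngn3 and Pik3ap1 was lower, by design of the choice. Sorcs2 measured 5.09, 5.09 and 5.56 CPM in replicates 1 to 3 with GFP only, 17.2, 21.8 and 16.1 CPM with WT and 43.3, 41.1 and 51.7 CPM with 6S-A. The groups did not overlap, and each step from GFP only to WT and from WT to 6S-A was upward. The log2 difference between 6S-A and WT was 1.29 (SE 0.16), and 6S-A was 2.51-, 1.88- and 3.21-fold over the WT replicate of the same number, a number that names replicates and was not taken to pair them. Over single pools, Sorcs2 ranged from 17.9 to 94.2 CPM with a median of 44.2 in 18 pools of 6S-A, and from 5.02 to 37.9 CPM with a median of 18.8 in 18 pools of WT. In 14 of 18 pools of 6S-A it was above every WT pool.

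Zfp185 was the most even of the 4 genes between the 6S-A replicates at 2 days, at 119, 121 and 124 CPM. It measured 65.5, 56.1 and 69.1 CPM with WT and 25.8, 24.9 and 22.3 CPM with GFP only. The log2 difference between 6S-A and WT was 0.92 (SE 0.12), the smallest of the 4. The 18 pools of 6S-A ranged from 84.4 to 221 CPM (median 123) and the 18 of WT from 39.9 to 110 CPM (median 64.6). The ranges met, and 12 of 18 pools of 6S-A were above every WT pool.

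Pik3ap1 had the opposite order. It measured 90.3, 83.4 and 72.0 CPM with GFP only, 18.9, 18.05 and 18.05 CPM with WT and 6.60, 9.73 and 7.37 CPM with 6S-A. The 6S-A replicates were all below the WT replicates, with a log2 difference of -1.23 (SE 0.16). Its pools overlapped as well. They ranged from 1.51 to 16.6 CPM with 6S-A and from 3.33 to 43.4 CPM with WT. In this gene 4 of 18 pools of 6S-A were below every WT pool and 11 of 18 WT pools were above every 6S-A pool.

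Dbpht2 was nearly undetected without Ngn3, with at most 3 reads in any GFP-only replicate. It measured 10.6, 6.59 and 8.53 CPM with WT and 15.6, 41.3 and 28.9 CPM with 6S-A, a log2 difference of 1.72 (SE 0.31). This was the largest difference and the largest spread of the 4 genes, from 1.48-fold in replicate 1 to 6.26-fold in replicate 2. More than 3 reads were found in 17 of 18 pools of 6S-A, 15 of 18 of WT and 0 of 18 of GFP only. The pools of both proteins ran from 0 CPM, to 106 CPM with 6S-A (median 22.5) and 27.4 CPM with WT (median 4.80), and 7 of 18 pools of 6S-A were above every WT pool.

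**Figure D1:**
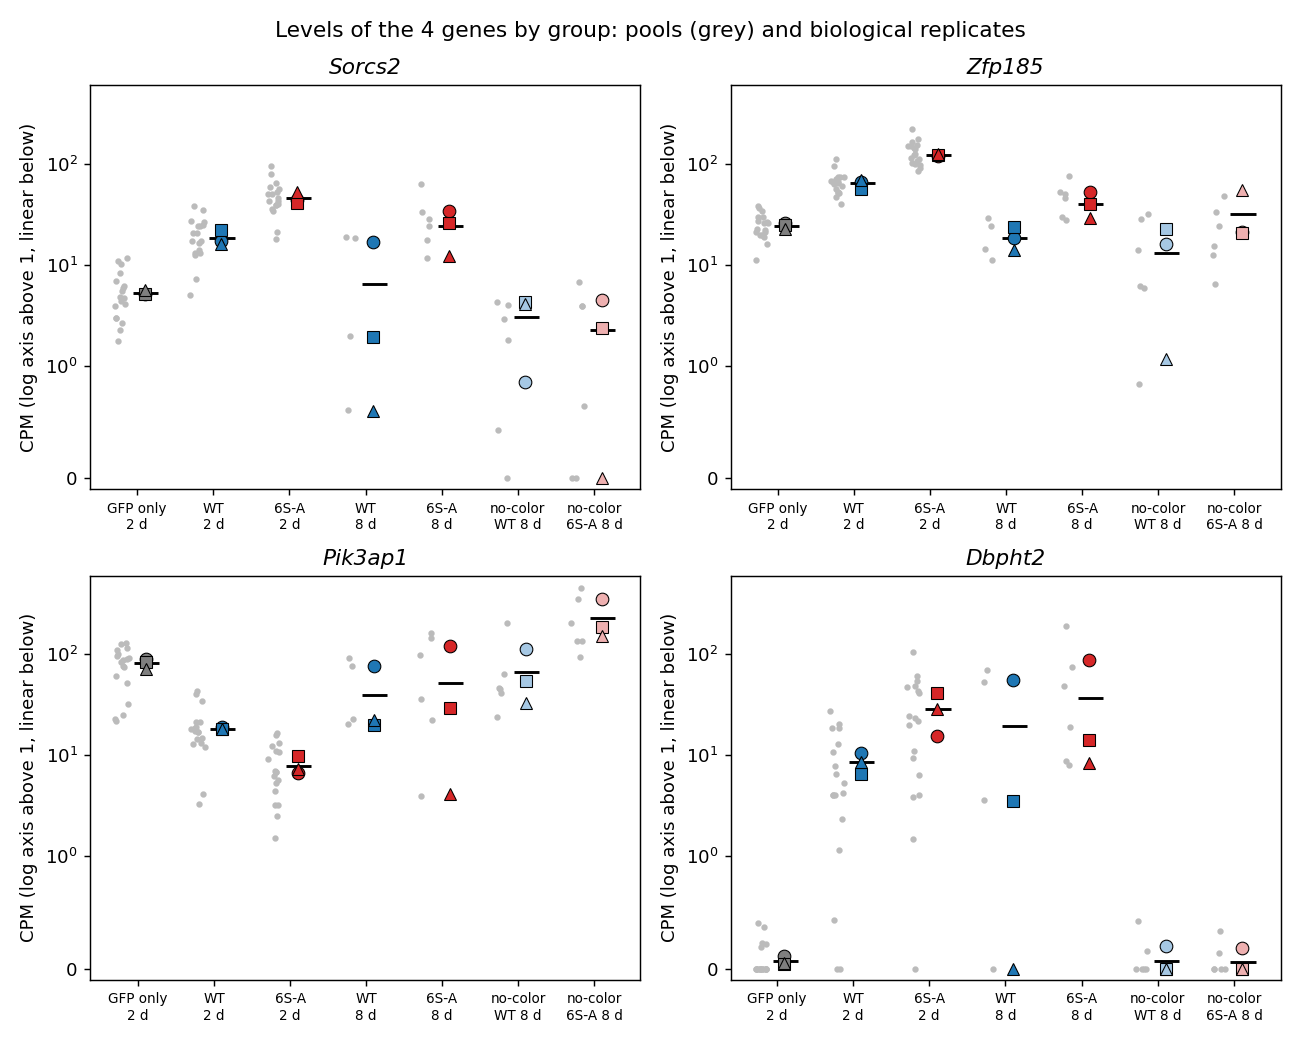
Level of each gene in CPM (log axis above 1, linear below) in the 7 groups. Grey dots are single pools of 50 cells, large symbols the biological replicates (circle, square and triangle for 1, 2 and 3) and bars their mean. At 2 days the replicates of 6S-A lay outside those of WT for all 4 genes, and at 8 days they did so for Zfp185.

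The genes were chosen on that comparison, so their ranks by edgeR's p describe the choice and test nothing. Sorcs2, Zfp185 and Pik3ap1 were the first 3 genes and the 3 under its threshold (adjusted p under 0.05), out of 23844 genes, or 0.0126%, and Dbpht2 was rank 9 and not under it, behind genes that were not chosen, and rank 185 with the replicate number as a block. Without WT replicate 1 or 2, or 6S-A replicate 1 or 3, 0 genes were under it. The replicates of all 4 genes did not overlap between 6S-A and WT, which also held for 5.40% of all tested genes in the higher and 5.21% in the lower direction. The first 4 other genes by p had log2 differences of 1.05 (Pdk2, a pyruvate dehydrogenase kinase), -0.85 (Cish, a cytokine signalling inhibitor), -0.73 (Palmd) and -0.71 (Serpinb6b, a serine protease inhibitor). By size alone, among 14279 genes with a mean over 1 CPM, Dbpht2 was rank 11, Sorcs2 54, Pik3ap1 70 and Zfp185 230.

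Against GFP only, the mean of WT and 6S-A Ngn3 gives a contrast that the choice did not use, although it comes from the same fit and shares its estimate of the spread. A choice by small p favours genes with a small estimated spread, so the SE and adjusted p given here may be too small. Sorcs2 rose by a log2 fold change of 2.47 (SE 0.16, edgeR adjusted p = 2.54e-07, Benjamini-Hochberg over 23844 genes), Zfp185 by 1.86 (SE 0.11, edgeR adjusted p = 1.01e-07) and Dbpht2 by 7.77 (SE 0.49, edgeR adjusted p = 1.9e-07). Pik3ap1 fell by 2.76 on the log2 scale (SE 0.12, edgeR adjusted p = 1.01e-08). The fold of Dbpht2 is not a measured one because GFP-only cells were at or under 3 reads. Against that limit of 3 reads per replicate, the mean level was at least 70.5-fold higher with WT and at least 235-fold higher with 6S-A. All genes tested were called at 18.8% in this comparison, 9.47% higher and 9.37% lower.

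Each protein against GFP only shows the same genes in the same direction, with the larger size for 6S-A. The log2 fold changes were 1.82 with WT and 3.11 with 6S-A for Sorcs2, 1.40 and 2.32 for Zfp185, -2.15 and -3.38 for Pik3ap1, and 6.91 and 8.63 for Dbpht2. Both columns of values share the GFP-only replicates, and their difference is the one the genes were chosen on. The 4 genes therefore had 2-day levels ordered GFP only, WT, 6S-A, upward for 3 genes and downward for Pik3ap1. Per kilobase of exon (GENCODE M21), the level of Zfp185 in 6S-A was 32.7 CPM, against 5.35 CPM for Dbpht2, 5.15 CPM for Sorcs2 and 1.42 CPM for Pik3ap1. In GFP-only cells it was Pik3ap1 that was highest, at 14.7 CPM per kilobase, against 6.56 CPM for Zfp185.

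At 8 days the comparison of 6S-A with WT used libraries that the choice did not. None of the 4 genes passed the test, and the replicates spread widely. Of 19696 genes tested, edgeR called 0 (0.00%), 415 had an unadjusted p under 0.05, and DESeq2 also called 0. Each of the 4 genes had an adjusted p = 1 with edgeR.

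Zfp185 kept the 2-day order most clearly. It measured 51.8, 39.9 and 28.7 CPM with 6S-A and 18.1, 23.3 and 13.8 CPM with WT. The 2 groups did not overlap, as was the case for 3.00% of genes in that direction, and the log2 difference was 1.11 (SE 0.65, 95% interval -0.25 to 2.48), which contains the 2-day value. Its pools ranged from 27.4 to 74.7 CPM with 6S-A and from 11.1 to 28.8 CPM with WT, and 5 of 6 pools of 6S-A were above all 4 retained WT pools. The no-color cells differed in the same direction, by 1.24 (edgeR adjusted p = 0.619), with 21.1, 20.4 and 54.3 CPM from 6S-A organoids and 15.8, 22.5 and 1.15 CPM from WT organoids. That difference rested on replicate 3, since replicates 1 and 2 differed by 0.41 and -0.14 (log2). Measured from the no-color cells labelled for each protein, the 6S-A difference of Zfp185 was -0.13 over 3 replicates and 1.06 over the 2 replicates of passage 2.

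Sorcs2 had a higher mean with 6S-A, at 34.0, 26.1 and 12.3 CPM against 16.8, 1.92 and 0.592 CPM with WT. The groups overlapped, although 6S-A was higher in 3 of 3 same-numbered replicates. The log2 difference was 1.84 (SE 1.17), and its interval (-0.65 to 4.32) contained the 2-day value. A fit blocked on replicate number gave 2.49 (SE 1.06), which was not called. The WT pool left out for its low read total held 38 reads of Sorcs2, or 44.7 CPM, more than any of the retained WT pools. With that pool included and no block, the difference was 1.33. The 6 pools of 6S-A ranged from 11.7 to 63.4 CPM, and the 5 of WT, with that one, from 0.604 to 44.7 CPM. In no-color cells Sorcs2 was at most 4.41 CPM in any replicate.

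Dbpht2 also had a higher mean with 6S-A, at 88.4, 14.1 and 8.44 CPM against 55.5, 3.52 and 0 CPM. The groups overlapped, and the log2 difference was 0.87 (SE 1.37, interval -2.11 to 3.85). Leaving out 1 replicate gave -0.85 (without 6S-A replicate 1) to 4.47. Dbpht2 was higher with 6S-A in 3 of 3 same-numbered replicates, and its difference in a blocked fit was 2.18 (SE 0.70, not called). Its pools ranged from 8.06 to 192 CPM with 6S-A and from 0 to 69.5 CPM with WT. The level in replicate 1 exceeded that in replicates 2 and 3 with either protein. The endocrine marker sum was as uneven, from 43.05 to 2133 CPM with WT and from 269.2 to 2712 CPM with 6S-A, and its part in the result was not tested.

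Pik3ap1 had no single order between the proteins at 8 days. It measured 121, 29.6 and 4.14 CPM with 6S-A and 76.0, 19.8 and 22.3 CPM with WT, so that 6S-A was higher in replicates 1 and 2 and lower in replicate 3. Its pools ranged from 3.95 to 163 CPM with 6S-A and from 20.4 to 92.8 CPM with WT. The log2 difference was 0.38 (SE 0.90, interval -1.58 to 2.33), which also contains the 2-day value of -1.23, and it was -1.25 without replicate 1 of 6S-A and -0.0409 with the replicate number as a block. In a joint fit of both days the difference changed by 1.59 (SE 1.00) for Pik3ap1, 0.52 (SE 1.18) for Sorcs2, 0.20 (SE 0.67) for Zfp185 and -0.86 (SE 1.47) for Dbpht2. Each of these changes was smaller than 2 SE.

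**Figure D2:**
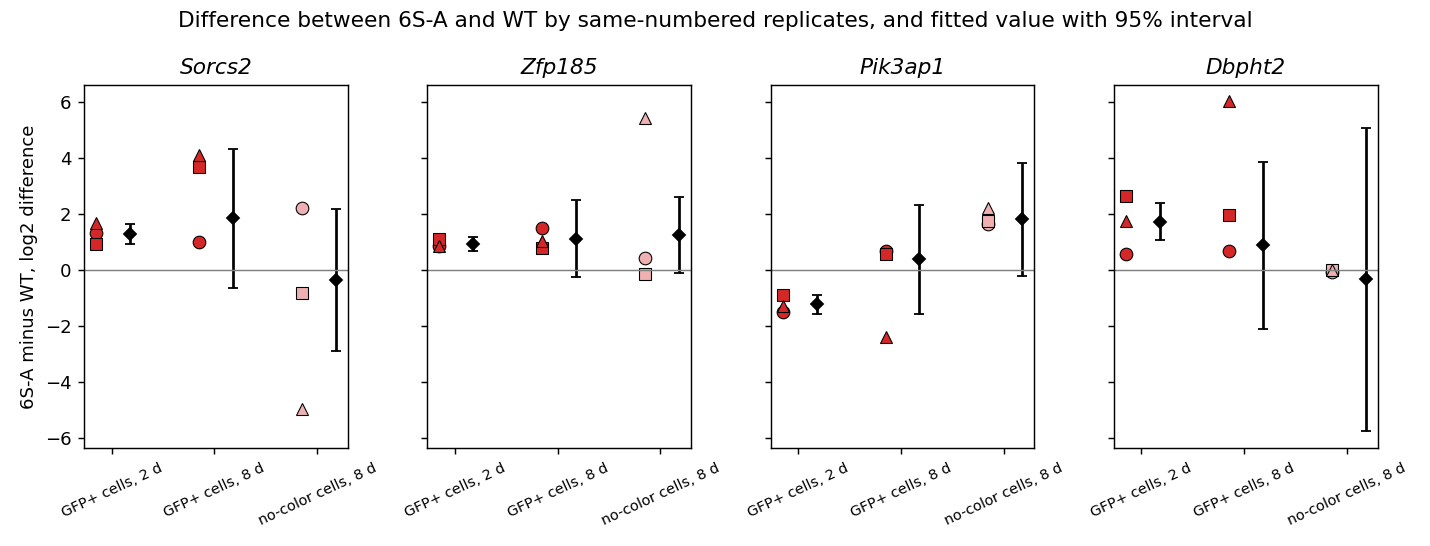
Difference between 6S-A and WT (log2, y axis) for each gene in GFP+ cells at 2 and 8 days and in no-color cells at 8 days. Symbols are same-numbered replicates (log2 CPM, prior count 2), and black diamonds with bars are the fitted log2 fold changes with their 95% intervals. The 8-day intervals in GFP+ cells include both 0 and the 2-day value for all 4 genes.

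**Figure D3:**
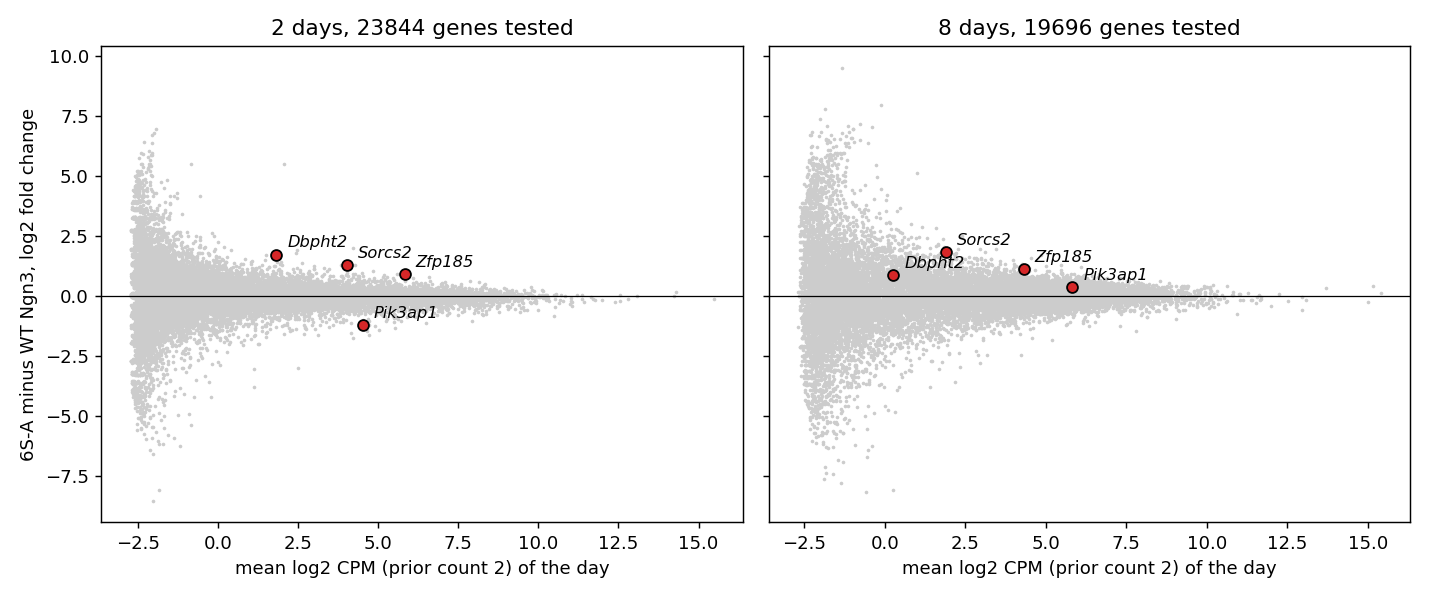
Log2 fold change of 6S-A over WT (y axis) against mean log2 CPM (x axis) for all genes tested at 2 and 8 days. Grey dots are genes and red dots the 4 genes. By size at 2 days they ranked 11 (Dbpht2), 54 (Sorcs2), 70 (Pik3ap1) and 230 (Zfp185) among 14279 genes with a mean over 1 CPM. At 8 days the value was larger for Sorcs2 and Zfp185, smaller for Dbpht2 and of the other sign for Pik3ap1.

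In the no-color cells at 8 days, Pik3ap1 was the gene of the 4 with the highest level. It measured 355, 186 and 152 CPM in cells from 6S-A organoids and 114, 54.8 and 32.8 CPM in cells from WT organoids. The groups did not overlap, which also held for 7.06% of tested genes in that direction, and every 6S-A replicate was above each replicate of the other 6 groups. The log2 difference was 1.80 (SE 0.92) with an edgeR adjusted p = 0.621. Of all genes, 0 were called by edgeR and 8 by DESeq2, while 1649 had an unadjusted p under 0.05. With no filter on low counts, edgeR called more genes in this comparison, Pik3ap1 among them. Measured from the no-color cells labelled for each protein, the 6S-A difference of Pik3ap1 was -1.43 (SE 1.27, edgeR adjusted p = 1).

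Against the no-color cells labelled for the same protein, none of the 4 genes passed edgeR's threshold in the fit as designed, with the filter on low counts and no replicate block. With no filter on low counts, edgeR called Dbpht2 with both proteins and Sorcs2 and Pik3ap1 with 6S-A. For Dbpht2 the no-color replicates had at most 3 reads, and the mean level was at least 26.2-fold higher in GFP+ cells with WT (edgeR adjusted p = 0.247) and at least 135-fold higher with 6S-A (edgeR adjusted p = 0.11). Replicate 1 carried both bounds, which without it were at least 2.34-fold with WT, where replicate 3 had 0 reads, and at least 41.2-fold with 6S-A. All genes were called at 0.249% in the WT comparison and 0.584% in the 6S-A comparison. Dbpht2 passed with 6S-A by DESeq2 (log2 fold change 9.14, adjusted p = 0.00952) but not with WT (7.55, adjusted p = 0.0539). It passed by edgeR for both proteins when both no-color groups served as the control (adjusted p = 0.04 with WT and 0.0137 with 6S-A). With the replicate number as a block in the edgeR fit, Dbpht2 passed with WT (7.58, adjusted p = 0.00267) and 6S-A (9.77, adjusted p = 6.61e-05). Over all alternatives with 3 replicates per group its edgeR adjusted p reached 0.47 with WT and 0.304 with 6S-A.

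Sorcs2 in GFP+ cells of 6S-A was higher than in its no-color cells by 3.40 (SE 1.24, edgeR adjusted p = 0.369), and with WT by 1.20 (SE 1.20, edgeR adjusted p = 0.761). The WT value was -1.26 without replicate 1 of WT, the replicate with 16.8 CPM. Pik3ap1 differed by -2.14 (SE 0.93, edgeR adjusted p = 0.504; -2.79 and 0.0152 with the replicate block) with 6S-A and by -0.71 (SE 0.90, edgeR adjusted p = 0.824) with WT. Zfp185 differed by 0.32 (edgeR adjusted p = 1) with 6S-A and by 0.45 (edgeR adjusted p = 0.847) with WT, where the value was -0.17 with both no-color groups as control and -0.0710 without replicate 3 of the no-color cells.

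Across the 7 groups, the mean level of Sorcs2 was highest with 6S-A at 2 days (45.4 ± 5.63 CPM, SD, n = 3), followed by 6S-A at 8 days (24.1 ± 11.002), WT at 2 days (18.4 ± 3.02), WT at 8 days (6.45 ± 9.03), GFP only (5.24 ± 0.27) and the no-color cells of WT (3.04 ± 1.90) and 6S-A (2.25 ± 2.21). Neighbours in that order overlapped except for 2 gaps, between 6S-A at 2 and at 8 days and between GFP only and the no-color cells of WT. The share of all genes with such gaps was counted only for 6S-A against WT within a day and between the no-color groups. Gaps between other groups are description only.

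Zfp185 had the order 6S-A at 2 days (121 ± 2.53 CPM), WT at 2 days (63.6 ± 6.74), 6S-A at 8 days (40.1 ± 11.5), no-color 6S-A (31.9 ± 19.4), GFP only (24.3 ± 1.82), WT at 8 days (18.4 ± 4.76) and no-color WT (13.2 ± 10.9). The first 3 did not overlap with each other, and from 6S-A at 8 days down each neighbour overlapped the next. For gaps across days, here and for Pik3ap1, the share of all genes was not counted. Pik3ap1 had the order no-color 6S-A (231 ± 109 CPM), GFP only (81.9 ± 9.23), no-color WT (67.0 ± 41.7), 6S-A at 8 days (51.7 ± 61.7), WT at 8 days (39.4 ± 31.7), WT at 2 days (18.3 ± 0.51) and 6S-A at 2 days (7.90 ± 1.63). The 4 groups from GFP only to WT at 8 days overlapped with their neighbours, and the others did not. Dbpht2 had over 3 reads in none of the replicates of GFP-only and no-color cells and in 11 of 12 replicates of the other groups, in the order 6S-A at 8 days (37.0 ± 44.6 CPM), 6S-A at 2 days (28.6 ± 12.8), WT at 8 days (19.7 ± 31.1) and WT at 2 days (8.56 ± 1.98), whose replicates overlapped from each neighbour to the next.

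The genes most like each member were found by the Pearson correlation of log2 CPM over the 21 replicates, among 14623 genes with a mean of at least 1 CPM, as a description in which all points share the 7 groups. Sorcs2 was most like Prex1, a Rac exchange factor (r = 0.89), followed by Dgke, Spsb1, Fryl and Tbc1d2b. Zfp185 was most like Lrp8, a reelin receptor (r = 0.93), then Gca, Slc27a3, Pcdhb20 and Cep120. Pik3ap1 was most like Cldn2, a tight-junction claudin (r = 0.96), then Ano6, Rgs16, Pamr1 and Gsap. Dbpht2 was most like Rapgef4, a cyclic AMP-regulated exchange factor (r = 0.97), then 1700086L19Rik, Pcsk2, a prohormone convertase, Fam183b and Gng4. Among the members, r was 0.79 for Sorcs2 with Dbpht2, 0.60 for Zfp185 with Dbpht2 and 0.46 for Sorcs2 with Zfp185. For Pik3ap1 it was -0.52 with Sorcs2, -0.36 with Zfp185 and -0.53 with Dbpht2.

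The other genes of the members' pathways were read from lists, without the members, in a comparison that called 9.47% of all genes higher and 9.37% lower. Of 4 other VPS10P receptors tested, 1 rose with the mean of both Ngn3 proteins against GFP only at 2 days, Sort1, which encodes sortilin (log2 fold change 1.17, from 51.1 CPM with GFP only to 99.99 CPM with WT and 132 CPM with 6S-A). Of 17 neurotrophin genes and their partners, 4 rose and 3 fell. Ngfr (7.63) and Ntf3 (6.00) rose from 0 CPM with GFP only, so that these fitted sizes depend on the prior count. Their mean levels stayed low, at 0.925 CPM with WT and 1.29 CPM with 6S-A for Ngfr.

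Of 35 actin-associated LIM proteins, 11 rose and 11 fell. Pdlim2 rose from 2.79 CPM with GFP only to 79.1 CPM with WT and 87.8 CPM with 6S-A (log2 fold change 4.90), Mical2 (2.48) and Mical1 (1.92), which oxidise actin, rose, and Lmo7 fell (-1.67). Of 29 genes of class I phosphoinositide 3-kinase and its adaptors, 7 rose and 5 fell. Blnk, the B-cell linker adaptor, rose from 1.88 CPM with GFP only to 24.0 CPM with WT and 24.1 CPM with 6S-A (3.69), Inppl1 (1.18) and Pik3r2 (0.95) rose, and Tlr4, a Toll-like receptor, fell (-1.96). The median log2 fold change of all genes tested was 0.01, and those of the lists were 1.84, -0.04, -0.12 and 0.22 in the order given. The first rests in part on Sorcs1 and Sorcs3, which were at most 0.0431 CPM with GFP only and did not pass the test. None of these list genes was called between 6S-A and WT at either time. That follows from the calls over all genes, 0 of 19696 at 8 days and 3 of 23844 at 2 days. Those 3 were members, which the lists leave out.

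**Figure D4:**
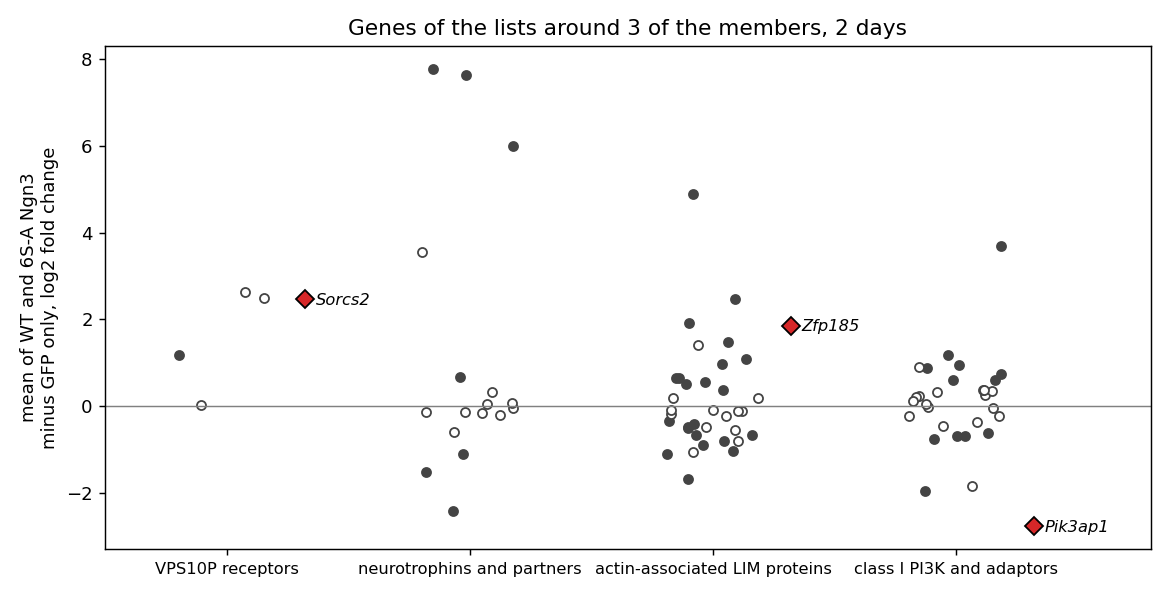
Log2 fold change of the mean of WT and 6S-A Ngn3 against GFP only at 2 days (y axis) for the genes of 4 lists (x axis). Filled circles passed edgeR's threshold, open circles did not, and red diamonds are the members. Pik3ap1 lay below every other gene of the phosphoinositide 3-kinase list.

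Pik3ap1 is best known from immune cells, so markers of those cells are given beside it. The summed level of 6 B-cell markers was 0.512 to 1.16 CPM with GFP only, 0.0493 to 0.119 CPM with WT and 0 to 0.313 CPM with 6S-A at 2 days, while Pik3ap1 was at 72.0 CPM or more with GFP only. Of the 3 B-cell markers tested, Cd79b fell with the mean of both proteins (log2 fold change -5.76, edgeR adjusted p = 0.00184), from a mean of 0.587 CPM with GFP only. Cd79a (-1.80) and Blk (-1.21) did not pass the test. The summed level of 8 myeloid markers was 10.1 to 12.8 CPM with GFP only, 5.60 to 9.07 CPM with WT and 7.43 to 8.27 CPM with 6S-A. Of the 5 tested, Csf1r, a macrophage receptor, fell (log2 fold change -2.77, edgeR adjusted p = 0.000325), from 4.05 CPM with GFP only to 0.703 CPM with WT and 0.49 CPM with 6S-A. The others did not pass the test and went both ways. Itgam (1.16) and Fcgr3 (1.19) were higher, and Cd68 (-0.28) and Ptprc (-0.14) were lower. The part of these markers in the result was not tested. At 8 days the sum was between 4.45 and 22.8 CPM in the 4 groups, and 2.23 CPM at most for B-cell markers.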

How the data were processed

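The deposited file is a table of raw counts of reads per gene for 77 libraries (Smart-seq2, no molecular identifiers), which the authors made with GSNAP on mm10 and HTSeq (0.5.3p3) on Ensembl release 81, without normalization. The strand setting is not given in the sources used here. It lists 46078 genes and 92 spike-ins, and 22.5% of reads as not aligned, 14.4% as in no feature and 8.06% as ambiguous, which stayed out of library sizes. Libraries needed over 1000000 gene reads, over 10000 detected genes and under 30% spike-in reads, which 76 met. Technical repeats were summed within a biological replicate (n = 3 per group). Genes with reads in 5 or more libraries of a day were fitted with edgeR 4.0.16 (R 4.3.3, TMM, robust quasi-likelihood), 1 fit per day and 1 joint fit, with Benjamini-Hochberg adjustment over all genes tested and a threshold of 0.05. Correlations used log2 CPM with a prior count of 2.

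The members and gene lists were chosen with earlier results of these data known. The genes named are the members, Neurog3, the first 4 other genes by p in the choosing contrast, the 5 genes most like each member, up to 4 called genes of each list with the largest change (some are not reported here), and markers of other cell types. The lists of acinar, T and NK cell, fibroblast, endothelial and tuft markers were read by their sums, as a check of the sort. Alternatives were DESeq2 1.42.0, its size factors, other filters, all libraries, the first technical repeat, passage 2 only, a replicate block, other controls and leaving out each replicate. Statistics were tested on simulated data. The limit of 3 reads covers counting error only, while the edgeR intervals include the spread between replicates.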

Additional observations from a re-analysis of the deposited data

Results flagged for a closer look

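Over the 8-day groups, 16 sets of pools were examined for a pool far from the others, of which chance gives about 1 in 20 where pools are independent. These pools are not, since 1 to 3 technical repeats share a replicate. A pool stood far above the others in 3 of them. Dbpht2 reached 192 CPM in technical repeat 2 of replicate 1 of 6S-A at 8 days, the highest of 6 pools. In the no-color cells of WT it reached 0.423 CPM in technical repeat 2 of replicate 1, which is within 3 reads. Pik3ap1 reached 203 CPM in technical repeat 1 of replicate 1 of the no-color cells of WT. The WT pool of replicate 2 at 8 days that was left out for its read total held Sorcs2 at 44.7 CPM, against at most 6.79 CPM in any no-color pool, and Dbpht2 at 1.18 CPM, from 1 read, against at most 0.423 CPM.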

How the results depend on the processing

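Of the values recomputed under an alternative, 576 kept their direction and side of the threshold or stayed close, 48 moved, 23 reversed and 12 became called. At 2 days no alternative changed the direction of the 4 genes between 6S-A and WT or against GFP only, nor ended a call of the mean of both proteins against GFP only. Counts called between 6S-A and WT at 2 days were 97 with DESeq2, 100 with no filter, 63 with the first technical repeat and 0 to 5 without 1 replicate (0 without WT replicate 1 or 2 or 6S-A replicate 1 or 3). With the first technical repeat alone, the 2-day difference was 2.07 for Sorcs2, -1.75 for Pik3ap1 and 0.74 for Dbpht2, and 1914 genes were called for the mean of both proteins. Against GFP only it gave 0.95 (Sorcs2), 1.54 (Zfp185) and 8.74 (Dbpht2) for WT, and 2.46 (Zfp185), -3.78 (Pik3ap1) and 9.48 (Dbpht2) for 6S-A, and for Dbpht2 leaving out 1 replicate gave 6.62 to 7.49 and 8.28 to 9.21. It reversed the no-color difference of Dbpht2 (2.42) and Sorcs2 (0.0904) and the change of Sorcs2 between days (-0.62), and called 23 genes for WT against its no-color cells.

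For 6S-A against WT at 8 days, leaving out 1 replicate gave -0.85 to 4.47 for Dbpht2 and -1.25 to 1.26 for Pik3ap1, 1.31 to 4.29 for Sorcs2 and 0.88 to 1.35 for Zfp185, with 0 to 2 genes called (2 without WT replicate 1), and 8 were called with no filter. Against own no-color cells, chosen after seeing the data, Pik3ap1 was -1.43, with passage 2 only -1.01 and with the block -1.98, and Zfp185 was -0.13, with the block -0.30. Leaving out 1 replicate gave a change between days of -2.57 to 2.83 for Dbpht2, -0.0229 to 2.52 for Pik3ap1, -0.00392 to 3.06 for Sorcs2 and -0.0329 to 0.39 for Zfp185. In no-color cells it gave -3.03 to 2.70 for Dbpht2 and -1.27 to 0.14 for Sorcs2 (0.42 with passage 2 only). For WT against its no-color cells it gave -1.26 to 1.73 for Sorcs2 and -0.0710 to 1.06 for Zfp185, with 8 to 78 genes called, and for 6S-A 19 to 80.

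Genes called for WT and for 6S-A against their no-color cells were 421 and 502 with DESeq2, 180 and 337 with both no-color groups as control, 743 and 583 with no filter, and 24 and 34 with passage 2 only. For WT they were 21 with filterByExpr and 133 with only the groups compared. No-color calls between proteins were 8 with DESeq2 and 352 with no filter. Dbpht2 passed against no-color cells with both no-color groups (7.63 for WT, 8.50 for 6S-A), no filter (7.46 and 8.67), DESeq2 (9.14 for 6S-A) and only the groups compared (8.71 for 6S-A). Zfp185 with WT was -0.17 with both no-color groups. With no filter Pik3ap1 passed with 6S-A (-2.14) and between no-color cells (1.81), and Sorcs2 with 6S-A (3.40). The cause of these shifts was not tested.

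With a replicate block (the number as a term), 147 genes were called between 6S-A and WT at 2 days, 244 for WT and 397 for 6S-A against no-color cells. Dbpht2 then passed with WT (7.58) and 6S-A (9.77), Pik3ap1 with 6S-A (-2.79), and between 6S-A and WT at 8 days Pik3ap1 was -0.0409, Dbpht2 2.18 (SE 0.70) and Sorcs2 2.49 (SE 1.06), none of them called. Same-numbered replicates of different groups correlated by 0.05 to 0.21 at 2 days and 0.06 to 0.46 at 8 days (deviations from group means), and over genes with a mean of at least 1 CPM by 0.0843 to 0.38 and 0.0865 to 0.531. Not every one was over 0.1 in either set, so the main fits did not pair the samples by number. The medians over genes of at least 1 CPM were 0.264 at 2 days and 0.246 at 8 days, against -0.0645 and -0.121 between other numbers. Same-numbered replicates thus shared some variation, which the fits without a block leave in the spread. At 8 days, replicate 3 of every group was also at a later passage. At 2 days every same-number correlation exceeded those between other numbers (at most 0.0235 over genes of at least 1 CPM), and at 8 days not every one did. The 8-day groups spread widely between 3 replicates, and differences within their wide intervals were not detectable in these samples.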
